A study of Mus musculus with 30 samples.

Results

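The 8 libraries described here are CD11b-isolated microglia from wild-type mice given a blocking antibody against interleukin-34 (4 animals, labelled a-IL34) or the control antibody a-gp120 (4 animals), out of 30 libraries in the series. They were taken by the tissue, treatment and experiment labels, with no measured value used. Animals 2, 10, 11 and 24 received anti-IL34 and animals 1, 7, 8 and 15 received anti-gp120, which is directed at an HIV envelope protein that mice do not have. All were perfused with saline, and 1 forebrain hemisphere of each went through magnetic isolation of cells that carry CD11b, an integrin subunit on microglia and other myeloid cells. The anti-IL34 arm has 3 males and 1 female (animal 11), and the anti-gp120 arm 2 males (animals 1 and 7) and 2 females. Age, antibody dose, route and schedule are not given in the sources used here, and each library bears its own animal number. The series also holds the other hemisphere of the same 8 animals as whole forebrain, and 7 isolates from Il34 heterozygous (Het, n = 4) or knockout (KO, n = 3) mice, the former with 1 intact copy of the gene. Per-library values are listed in the order of animals 1, 7, 8 and 15 for anti-gp120 and 2, 10, 11 and 24 for anti-IL34.

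Interleukin-34 is one of the ligands of the receptor tyrosine kinase CSF1R, the other being CSF1 (M-CSF). In the forebrain it is made mainly by neurons, while CSF1R is carried by microglia, which depend on its signal for survival and for their resting gene programme. That homeostatic programme includes purinergic receptors such as P2RY12, the fractalkine receptor CX3CR1 and the surface protein TMEM119. Type I interferons act on a separate receptor and induce antiviral genes through an interferon-stimulated response element in the promoters of these genes.

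Total counts ran from 16.2 to 50.5 M per library with anti-gp120 and from 17.5 to 49.3 M with anti-IL34, and 17570 genes had enough counts to be tested. The isolates were checked against defining markers. Tmem119, P2ry12 and C1qa were present in all 8 libraries, whereas Itgam, which encodes CD11b itself, had 3 counts in all 8 together and Irf8 had 0. Both lie within or across another gene on the same strand in the gene annotation (Gm49368 and Gm20388). Whether this overlap lowered their counts was not tested, and the 2 genes were not used to judge the isolation. Cx3cr1, which also crosses genes on its strand, had 356071 counts. A set of 908 microglia-enriched genes was taken from the Het animals, as those at least 4 log2 units above whole forebrain, and 893 of them were tested here. The set is defined by the isolation and is not made of microglia genes alone. It holds all 13 listed border-associated macrophage genes, 15 neutrophil and monocyte genes, 3 mural-cell genes, 2 lymphocyte genes and Ttr of the choroid plexus. They took 14.9%, 11.8%, 13.6% and 8.36% of counts in anti-gp120 animals 1, 7, 8 and 15, and 8.05%, 6.25%, 9.85% and 6.65% in anti-IL34 animals 2, 10, 11 and 24. Anti-gp120 animal 15 thus lay within the anti-IL34 range, and it also fell among the anti-IL34 libraries on the first principal component, which held 59.8% of the variance.

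Transcripts of other brain cells lay the opposite way, higher in most treated libraries. Summed over 12 astrocyte markers, the level was 4945, 9845, 6084 and 18918 CPM (counts relative to library size, scaled between libraries by edgeR's TMM method over all genes) with anti-gp120 and 16832, 16330, 10764 and 19940 with anti-IL34. The 14 oligodendrocyte-lineage markers summed to 4019, 6687, 4317 and 9931 CPM with anti-gp120 and 11728, 12888, 6293 and 13446 CPM with anti-IL34. Anti-gp120 animal 15 was high and anti-IL34 animal 11 low within their arms on both lists, and the arms overlapped on both. The part of these other-cell transcripts in the gene results was not tested. Values are therefore given on 2 scales, TMM over all genes (plain CPM) and TMM over the 893 tested microglia-enriched genes (microglia-scaled CPM). In whole isolates, fewer cells of a type and less RNA per cell cannot be told apart.

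**Figure D1:**
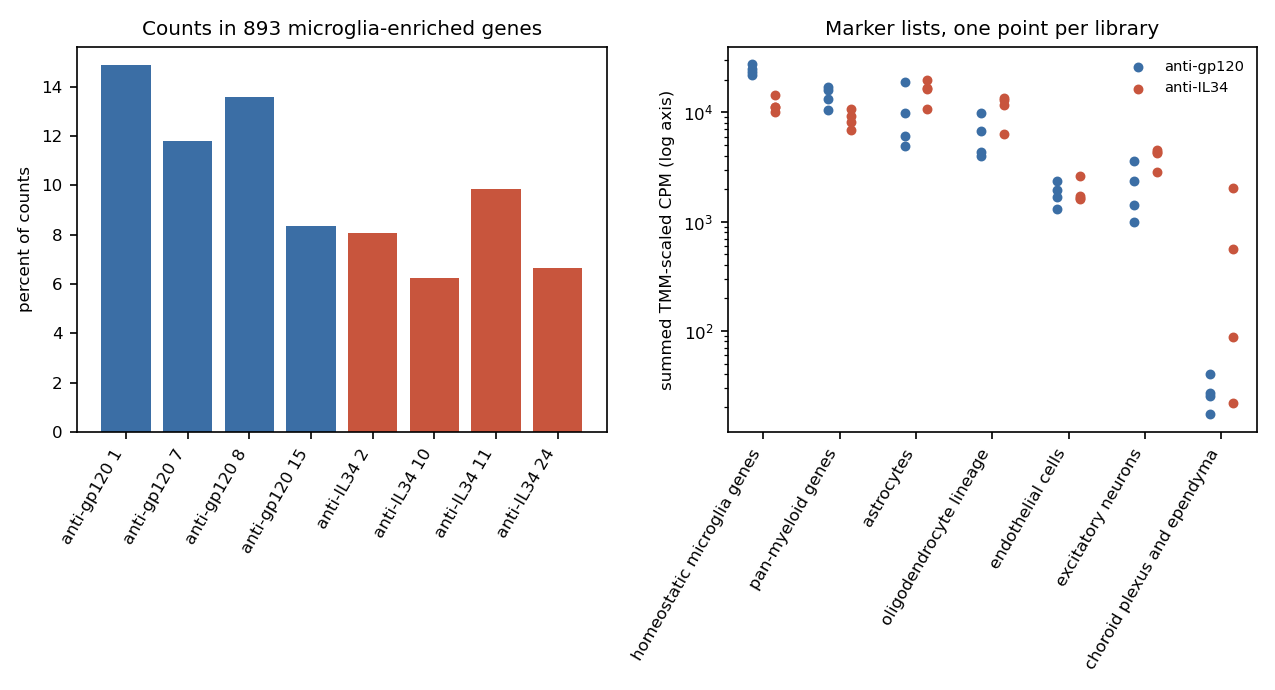
Left, percent of all counts that fell in the 893 tested microglia-enriched genes, 1 bar per library, from 14.9% in anti-gp120 animal 1 to 6.25% in anti-IL34 animal 10. Right, summed TMM-scaled CPM (log axis) of 7 marker lists, 1 point per library, blue for anti-gp120 and red for anti-IL34. The homeostatic list separates the arms, and the astrocyte and oligodendrocyte lists do not.

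With TMM scaling over all genes, 110 of 17570 genes (0.626%) passed the edgeR quasi-likelihood test with sex as a covariate at a Benjamini-Hochberg adjusted p under 0.05. Of these 106 (0.603%) fell and 4 (0.0228%) rose with anti-IL34, and 46 of the 106 were among the 893 microglia-enriched genes (5.15% of these). The median log2 change, anti-IL34 minus anti-gp120, was 0.06 over all genes and -0.49 over the microglia-enriched ones. All 4 anti-IL34 libraries were below all 4 anti-gp120 libraries for 1886 genes (10.7%) and above them for 839 (4.78%). The number called rested on single animals. Leaving out 1 animal at a time, 0 of the 110 genes still passed when control animal 7 or treated animal 10 was missing, and 1 when treated animal 2 was. Without control animal 1 or 8 there were 4, without treated animal 24 there were 6, without treated animal 11 there were 108 and without control animal 15 all 110. The highest edgeR adjusted p that any of the 110 reached in these fits was 0.225. Over all genes the count was 6905 (3571 higher, 3334 lower) without anti-gp120 animal 15 and 514 without anti-IL34 animal 11. The unadjusted p was under 0.05 for 4559 genes. The balance toward lower calls also depended on the method. DESeq2 called 560 genes higher and 1455 lower, limma with quality weights 3739 higher and 3231 lower, and TMM over the pan-myeloid list 83 higher and 6 lower.

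Genes of the homeostatic microglia programme fell together. The list of these genes, like the others, was chosen with earlier results of these data known, so its counts describe the genes and test nothing. Of its 25 tested members, 22 of them microglia-enriched, 16 fell and 0 rose, with a list median of -1.29 on the log2 scale. Of all genes 0.603% fell and 0.0228% rose, and of the enriched ones 5.15% fell and 0 rose. For 23 of the 25 all anti-IL34 libraries were below all controls, beside 10.7% of all genes and 23.4% of enriched ones. Of the 16 called members 0 passed when control animal 7 or treated animal 2 or 10 was left out, and 1, Slc2a5, when control animal 1 or 8 or treated animal 24 was. All 16 passed without control animal 15 or treated animal 11. Slc2a5, which encodes the fructose transporter GLUT5, lies on chromosome 4 (GRCm38 chr4:150119283-150144169, plus strand) and moved furthest of the list, with 127, 124, 128 and 102 CPM under anti-gp120 and 14.01, 13.98, 26.7 and 13.7 CPM under anti-IL34. Every anti-IL34 library was far below every control, and animal 11 was the highest of its arm. The log2 change was -2.78 (standard error 0.218, edgeR adjusted p 0.00625, Benjamini-Hochberg). P2ry12, the ADP receptor that steers microglial processes toward injury (chr3:59216272-59262871, minus strand), stood at 1896, 1583, 1488 and 1741 CPM in the controls and 397, 353, 599.9 and 369.7 CPM with the antibody. The ranges were well apart, a log2 change of -1.93 (standard error 0.199, edgeR adjusted p 0.0188). The neighbouring P2ry13, another ADP receptor, went from 467 ± 62.6 to 136 ± 25.7 CPM (SD, n = 4 each; log2 change -1.78, edgeR adjusted p 0.0175).

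Both purinergic genes lie inside Med12l on the other strand. Over the 8 libraries Med12l had 13050 counts and P2ry12 had 277560. Bank1, an adaptor better known from B cells, had 74.0, 64.4, 63.6 and 55.8 CPM with anti-gp120 and 17.3, 15.6, 23.2 and 13.1 CPM with anti-IL34 (log2 change -1.88, standard error 0.185, edgeR adjusted p 0.0175). Fcrls, a scavenger receptor gene that the count table names Fcrl2, fell by 1.65 on the log2 scale (edgeR adjusted p 0.0223) and Rnase4, a secreted ribonuclease, by 1.30 (edgeR adjusted p 0.0223). Neither gene had overlapping arms. These 3 genes and P2ry13 passed in 2 of the 8 fits with 1 animal left out, those without control animal 15 and without treated animal 11.

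Tmem119, a microglia-specific membrane protein in brain, read 622, 521, 545 and 495 CPM in controls against 194, 156, 267 and 194 CPM under anti-IL34, a log2 change of -1.40 (standard error 0.176, edgeR adjusted p 0.0371). The lowest control was anti-gp120 animal 15 and the highest treated library anti-IL34 animal 11, and they were still apart. Cx3cr1 (-1.16, edgeR adjusted p 0.0442), Siglech (-1.21, 0.0491), a sialic-acid-binding receptor, and Gpr34 (-1.29, 0.0499), a lysophosphatidylserine receptor, passed by a small margin. Gpr34 lies inside Cask on the other strand, and the annotated span of Cx3cr1 crosses several genes. Olfml3, Golm1, Crybb1, Ltc4s, Adgrg1 and Selplg were the other 6 members that fell. The called genes of this paragraph passed in 2 of the 8 fits with 1 animal left out, those without control animal 15 or treated animal 11. Without control animal 15 all 25 members were called lower (19.5% of all genes in that fit), and the list median stayed between -1.50 and -1.04 over the 8 fits.

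The gene with the smallest p-value was not on that list. Gpr165, an orphan G-protein-coupled receptor gene (chrX:96713441-96719388, plus strand), had 103, 103, 95.0 and 105 CPM with anti-gp120 and 23.6, 25.2, 33.0 and 29.5 CPM with anti-IL34 (log2 change -1.84, standard error 0.123, edgeR adjusted p 0.00625). The controls were close to one another, anti-gp120 animal 15 included. It passed in 6 of the 8 fits with 1 animal left out and had an edgeR adjusted p of 0.0635 without anti-IL34 animal 10. Hsf2bp, whose product binds the heat shock factor HSF2, had 5.94, 7.15, 5.89 and 3.87 CPM in controls and 0.798, 0.762, 0.776 and 0.695 CPM with anti-IL34 (-2.93, edgeR adjusted p 0.00625). The treated libraries held 12 to 40 counts of it. The predicted gene Gm11523 had 5.96, 5.51, 5.06 and 6.14 CPM and 0.698, 0.675, 1.14 and 0.695 CPM (-2.76, 0.00625). Both are microglia-enriched, and their arms were apart by several-fold. Myo18b, an unconventional myosin, went from 107, 129, 100.05 and 87.9 to 21.6, 19.3, 29.4 and 9.04 CPM (-2.40, edgeR adjusted p 0.0374). Dennd2c (-1.40), a regulator of Rab GTPases, Cd164 (-1.23), a sialomucin, Cep68 (-0.80), a centrosomal protein, and Gm7694 (-1.11), a predicted gene that shares a strand with the overlapping Nos1ap, also fell, with edgeR adjusted p between 0.0175 and 0.0255. Hsf2bp and Gm11523 passed in 5 of the 8 fits, Myo18b in 3 and the other 4 in 2, those without anti-gp120 animal 15 and anti-IL34 animal 11.

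To compare genes with other microglia genes, the fit was repeated with libraries scaled on the 893 enriched genes. This shifted values upward by about 0.52 on the log2 scale, to a median of 0.58 over all genes and 0.05 over the enriched ones. Of the 106 genes called lower with TMM over all genes, which had differences of -0.56 or lower there, 76 had arms that did not overlap on the microglia scale. For the 46 that are microglia-enriched this count was 46, at a median of -0.85. Among the 893 enriched genes the anti-IL34 libraries lay wholly below the controls for 180 (20.2%), wholly above for 159 (17.8%) and overlapped for 554. Over all 17570 genes the shares were 1.98% and 12.6%. The spread of the enriched genes on this scale is shown with the members of 4 lists.

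**Figure D2:**
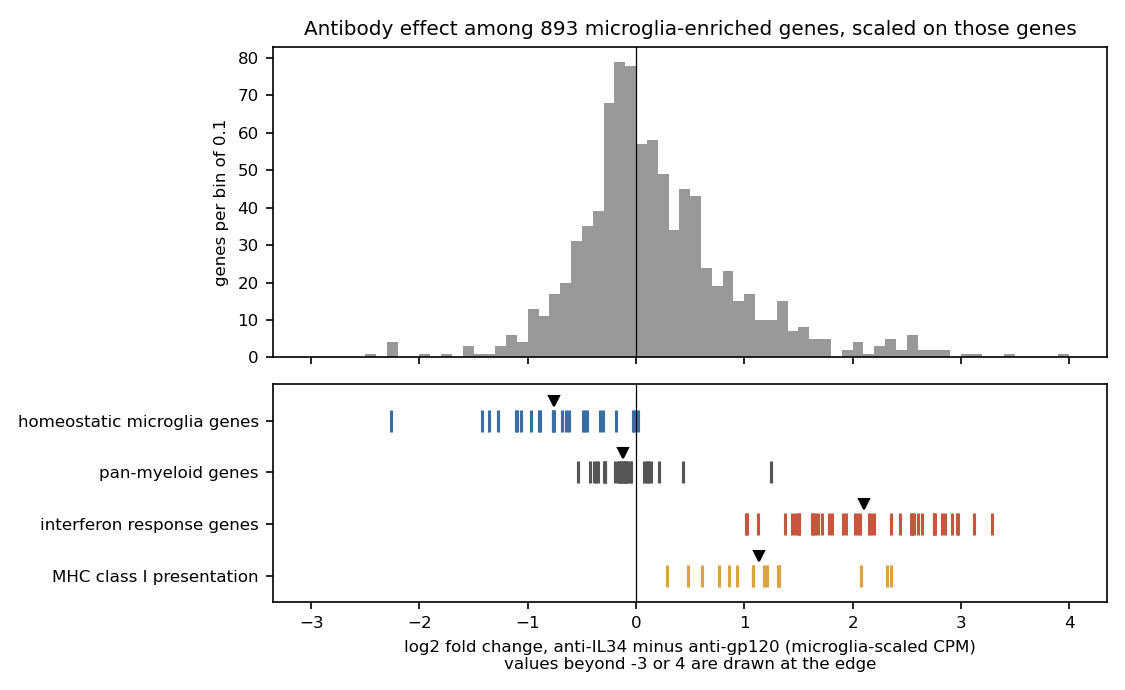
Top, histogram of the microglia-scaled log2 change (anti-IL34 minus anti-gp120) of 893 microglia-enriched genes in bins of 0.1. Bottom, all tested members of 4 lists as ticks on the same axis, enriched or not, with the list median as a black triangle: -0.76 for the homeostatic, -0.12 for the pan-myeloid, 2.11 for the interferon and 1.13 for the MHC class I list.

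In this fit 2 genes passed over all genes tested (0.0114%), both of them microglia-enriched (0.224% of 893) and 1 in each direction (0.00569% each), while 4445 had an unadjusted p under 0.05 and DESeq2 called 1319 (1193 higher, 126 lower). Slc2a5 fell, from 85.3, 106, 94.2 and 115 to 15.6, 20.4, 25.8 and 18.4 microglia-scaled CPM (log2 change -2.26, standard error 0.198, edgeR adjusted p 0.0227). H2-Q7, an MHC class I gene of the Q region, rose from 10.7, 8.42, 8.34 and 7.11 to 52.3, 33.2, 45.4 and 49.5 microglia-scaled CPM (2.35, standard error 0.232, edgeR adjusted p 0.0309). Neither had overlapping arms. H2-Q7 has near-identical neighbours such as H2-Q6, so its reads may be shared with them. Of the 8 fits with 1 animal left out, 7 called 0 genes, and the fit without anti-gp120 animal 15 called 9414 (9184 higher, 230 lower). Quality-weighted limma called 11080 higher and 519 lower, so the even split of the 2 calls did not hold in these fits. An added fit confined to the 893 enriched genes, chosen after seeing the data, called 288, of which 140 were lower and 148 higher.

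The homeostatic list stayed at the low end of this scale, with a median of -0.76. For 20 of its 25 members the anti-IL34 libraries were all below the controls, beside 20.2% of enriched genes. P2ry12 had 1273, 1346, 1092 and 1981 microglia-scaled CPM in controls and 442, 514, 578 and 496 with anti-IL34 (log2 change -1.43, standard error 0.217, edgeR adjusted p 0.0646). It ranked 11 from the lowest of the 893 enriched genes, and Slc2a5 3. Fcrl2 (20), Tmem119 (40), Gpr34 (55), Siglech (69) and Cx3cr1 (76) ranked further up, each with arms that did not overlap.

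Pan-myeloid genes lay closer to the median of microglia genes than the homeostatic list did. The list of 29 tested members had a median of -0.65 with TMM over all genes and -0.12 on the microglia scale, with 10 members wholly below and 3 wholly above the controls on the latter (20.2% and 17.8% of enriched genes). C1qa, a chain of the complement component that tags synapses for removal, had 618, 604, 627 and 650.4 microglia-scaled CPM with anti-gp120 and 557, 556, 589 and 647 with anti-IL34. Ctss, the protease cathepsin S, had 1748, 1509, 1722 and 1876 and 1776, 1580.4, 1785 and 1945 microglia-scaled CPM. The arms overlapped for both genes, and for C1qb and C1qc. The fitted differences were -0.08 (standard error 0.156, edgeR adjusted p 0.679) for C1qa and 0.07 (standard error 0.168, edgeR adjusted p 0.727) for Ctss. Their sign turned with the scaling. With TMM over the pan-myeloid list the differences were 0.04 for C1qa, 0.07 for C1qb and 0.19 for Ctss, and with TMM over all genes -0.62, -0.59 and -0.47. Tyrobp, the DAP12 adaptor, read 139, 151, 144 and 143 microglia-scaled CPM against 114, 122, 130.3 and 135 (-0.19, edgeR adjusted p 0.323). Ctsd, the lysosomal protease cathepsin D, was the pan-myeloid member that fell with TMM over all genes (-1.07, edgeR adjusted p 0.0428), and it lost the threshold in 6 of the 8 fits, at a highest adjusted p of 0.225 without anti-gp120 animal 7. With control animal 15 left out edgeR called 26 members of the list lower, as it did 457 microglia-enriched genes, a set that holds 28 of the 29 members (19.5% of all genes).

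**Figure D3:**
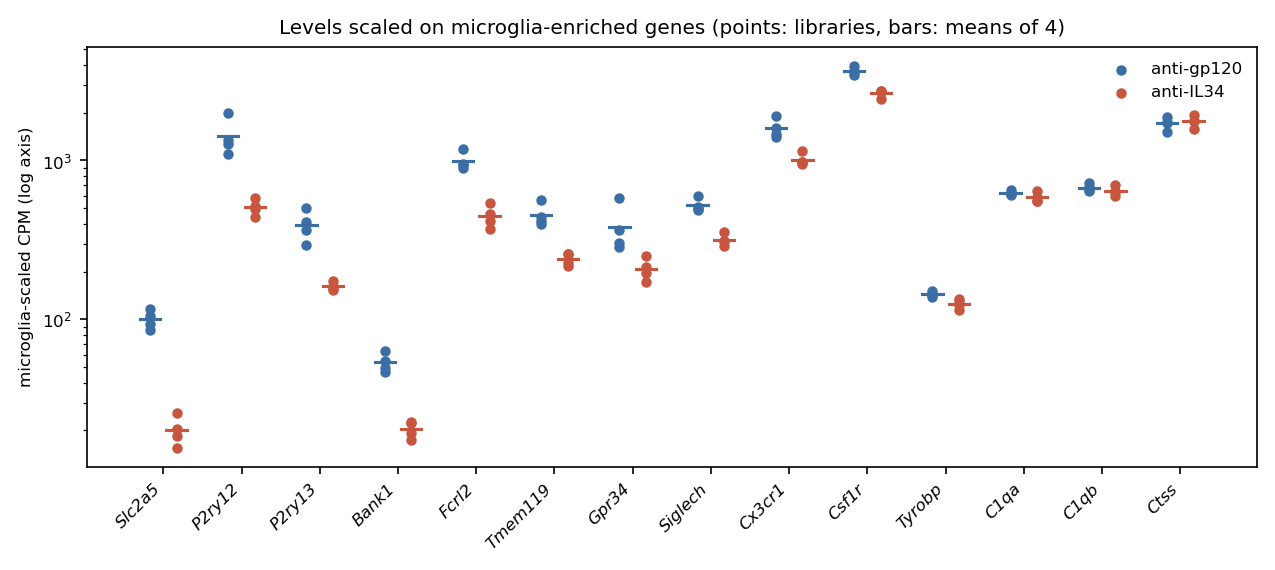
Microglia-scaled CPM (log axis) of 14 genes, 1 point per library and a bar at the mean of 4, blue for anti-gp120 and red for anti-IL34. The arms are apart from Slc2a5 through Tyrobp and overlap for C1qa, C1qb and Ctss.

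The genes of the targeted pathway were read next. Il34 itself, transcribed at a low level in the isolates, had 9.16, 12.1, 16.1 and 11.8 CPM with anti-gp120 and 14.7, 14.1, 17.5 and 15.5 CPM with anti-IL34, and the arms overlapped (log2 change 0.43, standard error 0.151, edgeR adjusted p 0.158). On the microglia scale the arms were apart (0.95, edgeR adjusted p 0.189), beside a median of 0.58 over all genes on that scale. Csf1, the gene of the other ligand, had 508, 388, 549.5 and 257 CPM and 320.5, 219, 324 and 195 CPM (-0.67, edgeR adjusted p 0.188), with anti-gp120 animal 15 inside the treated range. Its difference on the microglia scale was -0.12 (SE 0.186), and 0.01 with TMM over the pan-myeloid list. Csf1r, the shared receptor, was at 3457, 3679.8, 3601 and 3928 microglia-scaled CPM in controls and 2440.1, 2718, 2688 and 2737 with anti-IL34. Each arm was tight and they did not overlap, but the difference of -0.46 (SE 0.159) did not pass (edgeR adjusted p 0.189, and 0.0186 without anti-gp120 animal 15). With TMM over all genes its difference was -0.99 (edgeR adjusted p 0.0749), also with arms apart. It ranked 132 from the lowest of 893 on the microglia scale. Of 31 tested genes of CSF1R ligands and signalling 1 fell, against 0.603% of all genes, and the list median was -0.40 (0.13 on the microglia scale). That gene was Pik3cg, a phosphoinositide 3-kinase catalytic subunit of leukocytes, with 204, 174, 184 and 176 CPM against 81.9, 81.3, 117 and 91.4 CPM (-0.96, standard error 0.135, edgeR adjusted p 0.0374, 0.217 without anti-gp120 animal 7). Inpp5d, the SHIP1 phosphatase that opposes this kinase, had arms that did not overlap and missed the threshold (-0.89, edgeR adjusted p 0.0566).

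Surface receptors gave the next group, to be read beside the 0.603% of all genes and 5.15% of enriched genes that fell. Of 31 tested purine, lipid and hormone receptors 6 fell (Gpr165, P2ry13, P2ry12, Adra2a, Cx3cr1 and Gpr34), with a list median of -0.46 (0.03 on the microglia scale). Adra2a, an adrenergic receptor, had 30.5, 37.4, 31.3 and 32.3 CPM and 12.96, 13.9, 15.5 and 17.8 CPM (-1.13, standard error 0.137, edgeR adjusted p 0.0327), and its arms overlapped on the microglia scale. Among 18 Toll-like receptor genes and their partners 2 fell. Tlr5, the flagellin receptor, went from 26.9, 26.7, 25.4 and 20.8 to 6.48, 7.80, 9.70 and 6.60 CPM (-1.68, edgeR adjusted p 0.0175), and Tlr13, a sensor of bacterial ribosomal RNA, from 183, 132, 147 and 147 to 70.6, 56.6, 76.0 and 66.0 CPM (-1.17, 0.0362). Both had non-overlapping arms on either scale. Of 17 Siglec and inhibitory receptor genes 3 fell, namely Siglech, Siglece (-1.34, edgeR adjusted p 0.0499), another sialic-acid receptor, and Vsir (-1.12, 0.0399), which encodes the checkpoint protein VISTA and lies inside Cdh23 on the other strand. Cd22, a Siglec that inhibits phagocytosis, lay the other way on the microglia scale, at 7.42, 7.03, 7.47 and 6.70 and 19.5, 15.2, 15.6 and 15.7 microglia-scaled CPM (1.19, edgeR adjusted p 0.0685). Its arms were apart on that scale and overlapped with TMM over all genes. Of 9 Fc receptor genes 1 fell, the Fcrl2 already described. Of 16 integrins 1 fell, Itgae, the alpha chain of CD103, from 7.15, 6.62, 6.31 and 5.37 to 1.79, 0.85, 1.63 and 1.45 CPM (-2.17, 0.0327). Of these called receptors 0 passed when control animal 7 or treated animal 10 was left out, and Gpr165 alone when control animal 1 or 8 or treated animal 2 or 24 was.

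Metabolic and lysosomal genes held a few calls, beside the 0.603% of all genes that fell. Of 22 sugar transport and glycolysis genes 2 fell, Slc2a5 and the hexokinase gene Hk2, which had 352, 346, 397 and 279.9 CPM and 152, 97.8, 170.0 and 137 CPM (-1.28, standard error 0.192, edgeR adjusted p 0.0399), while the list median was 0.13. Of 42 lysosomal genes 3 fell, at a list median of -0.45 that became 0.10 on the microglia scale. Arsb, the arylsulfatase that degrades dermatan sulfate, went from 665, 600.1, 547 and 569.8 to 253, 233, 275 and 254 CPM (-1.24, standard error 0.124, edgeR adjusted p 0.0175) and was lower in every treated library on both scales. Ctsf (-0.77, 0.0399), a cathepsin, overlapped between arms on the microglia scale, and Ctsd did not. Of 13 iron-handling genes 1 fell, the mitochondrial iron importer gene Slc25a37 (-0.96, edgeR adjusted p 0.0374). Apart from Slc2a5, each of these genes passed in 2 of the 8 fits with 1 animal left out, and without anti-gp120 animal 7 the edgeR adjusted p of Arsb was 0.169. Without anti-gp120 animal 15, 29 lysosomal genes were called lower and 2 higher (19.5% and 20.9% of all genes).

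Among 27 microglial transcription factors 2 fell, beside 0.603% of all genes and 5.15% of enriched genes. The list median was -0.64 (-0.10 on the microglia scale). Maf, a factor of mature macrophages, had 426, 344, 383 and 376 CPM and 138, 132, 219 and 161 CPM (-1.19, standard error 0.162, edgeR adjusted p 0.0374), and Sall3, a zinc-finger factor, 136, 121, 126 and 105 CPM and 63.4, 53.8, 74.5 and 56.9 CPM (-0.96, 0.0382). Both lost the threshold without anti-gp120 animal 7, at an edgeR adjusted p of 0.217. Sall1, the factor that maintains microglial identity, missed the threshold at 525, 441.3, 442 and 379.7 CPM against 259, 171, 301 and 235 CPM (-0.88, edgeR adjusted p 0.0731), as did Bhlhe41 (-1.13, 0.0643), a repressor gene. For these 4 genes the arms were apart on both scales. In the TGF-beta pathway, whose signal keeps microglia in their homeostatic state, 0 of 21 genes passed, with Tgfb1 (-0.88, edgeR adjusted p 0.082) and Tgfbr1 (-0.82, 0.0571) below the controls in every library. The median of this list was -0.34, and 0.18 on the microglia scale, where 8 genes lay below and 13 above 0. In TREM2 signalling 0 of 18 passed, at a median of -0.58 (-0.06 on the microglia scale). Trem2, the lipid-sensing receptor, had 206, 166, 173 and 139.9 CPM and 94.5, 80.5, 110.1 and 94.5 CPM (-0.85, edgeR adjusted p 0.0557). Without anti-gp120 animal 15, 24 of the transcription factors, 14 of the TGF-beta genes and 10 of the TREM2 genes were called lower, and 0, 1 and 2 higher. In that fit 19.5% of all genes were lower and 20.9% higher.

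Interferon-induced genes were higher with anti-IL34 as values, and 1 of them passed the test. All 42 tested members of the list had a log2 change above 0, with a median of 1.57 against 0.06 over all genes, and of 2.11 against 0.58 on the microglia scale. The 1 member past the threshold stands against 0.0228% of all genes called higher. The treated libraries were wholly above the controls for 15 of the 42 with TMM over all genes (4.78% of all genes) and for 42 of 42 on the microglia scale (12.6% of all genes, 17.8% of the enriched ones). Summed over the list, the level was 2329, 995, 1103 and 1051 CPM with anti-gp120 and 5048, 2068, 3706 and 4382 CPM with anti-IL34. Anti-gp120 animal 1 was above the lowest treated library, animal 10, on the TMM scale. On the microglia scale the sums were 1563, 846, 810.0 and 1196 against 5628, 3012, 3570 and 5875 CPM, and they did not overlap.

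Cmpk2, a mitochondrial nucleotide kinase that lies next to Rsad2, was the member that rose, from 12.5, 13.01, 8.74 and 14.2 to 59.2, 29.9, 29.3 and 55.0 CPM (log2 change 1.71, standard error 0.275, edgeR adjusted p 0.0465). It lost the threshold without anti-gp120 animal 7 (0.225) and in 5 further fits with 1 animal left out, and kept it without anti-gp120 animal 15 or anti-IL34 animal 11. Rsad2, the antiviral enzyme viperin, had 29.8, 10.3, 13.1 and 11.5 CPM with anti-gp120 and 128, 42.7, 65.9 and 89.6 CPM with anti-IL34 (2.21, standard error 0.418, edgeR adjusted p 0.0565). The treated libraries were all higher, although control animal 1 was well above the other controls. Ifit3b, one of the IFIT proteins that bind viral RNA, had 10.0, 2.64, 2.91 and 5.34 CPM and 61.6, 18.5, 25.02 and 60.1 CPM (2.74, edgeR adjusted p 0.0571). Usp18, the protease that removes ISG15, had 12.4, 3.81, 4.04 and 5.81 CPM and 52.6, 18.4, 28.1 and 41.4 CPM (2.29, 0.0565), and Ifi44 5.73, 1.88, 2.20 and 3.00 CPM and 26.9, 9.48, 15.3 and 24.4 CPM (2.42, 0.0554). In each of these the treated libraries were above the controls and the test was missed narrowly. Without anti-gp120 animal 15, 32 of the 42 genes passed as higher (20.9% of all genes), Rsad2 with an edgeR adjusted p of 0.0115 and Ifi44 with 0.00923. Rsad2 and Ifi44 passed in 1 of the 8 fits with 1 animal left out. Without anti-gp120 animal 7, 0 of the 42 passed, and the edgeR adjusted p of these 2 genes was 0.225. DESeq2 called 34 of the 42, and 560 of all 17570 genes higher.

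**Figure D4:**
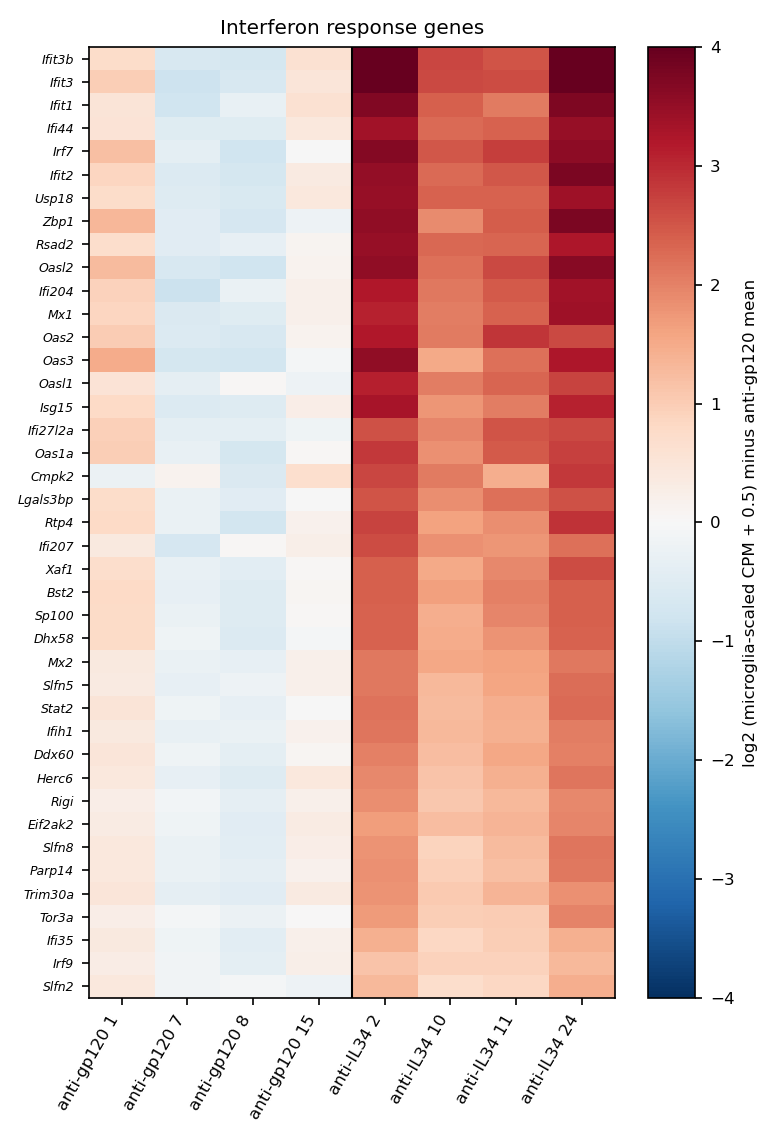
Each row is 1 of 41 interferon response genes and each column 1 of the 8 libraries, coloured by log2 (microglia-scaled CPM + 0.5) minus the anti-gp120 mean of that gene. All anti-IL34 columns are above 0 for every gene drawn, the smallest value being 0.69, and animals 2 and 24 are the strongest. Control animal 1 averages 0.66 above the control mean.

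The promoters of these genes were examined for the response element after all 42 were seen to lie above 0. The list is made of interferon-induced genes, which are induced through this element, so its share there says nothing of these libraries. The motif GAAANNGAAA was searched on both strands in RefSeq promoter windows of 300 bases (250 before to 50 after the start, GRCm38.p6). It occurred in 1079 of 27025 genes with a window (3.99%) and in 17 of the 30 interferon-list genes that had one (56.7%). Among genes with a window it was in 0 of 17 homeostatic genes, 3 of 81 genes called lower and 0 of the 4 called higher, beside the 3.99% of all genes. Other lists lay above that share, among them Fc receptors (22.2%, 2 of 9), MHC class I (21.4%, 3 of 14), Toll-like receptors (15.4%, 2 of 13) and pan-myeloid genes (14.3%, 3 of 21). A match is a description of the letters and not a bound site. Each promoter shown here carries a match, while Cmpk2, Ifi44 and Usp18 are not among the 17 list genes with one. The 250 bases before the start of 3 genes with high values in the treated libraries, and of Isg15, which was chosen after its values were seen for its overlapping matches, are shown 5′ to 3′ on the gene's strand with matches in capitals. They lie at chr12:26456453-26456702, minus strand (Rsad2), chr19:34607707-34607956, plus strand (Ifit3b), chr4:156200819-156201068, minus strand (Isg15) and chr5:92348890-92349139, minus strand (Cxcl10).
Rsad2: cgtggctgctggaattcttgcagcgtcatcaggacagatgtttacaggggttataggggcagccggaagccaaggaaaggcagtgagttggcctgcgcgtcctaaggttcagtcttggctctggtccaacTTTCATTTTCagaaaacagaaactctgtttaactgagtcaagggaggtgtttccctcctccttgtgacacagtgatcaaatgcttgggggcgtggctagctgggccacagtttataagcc
Ifit3b: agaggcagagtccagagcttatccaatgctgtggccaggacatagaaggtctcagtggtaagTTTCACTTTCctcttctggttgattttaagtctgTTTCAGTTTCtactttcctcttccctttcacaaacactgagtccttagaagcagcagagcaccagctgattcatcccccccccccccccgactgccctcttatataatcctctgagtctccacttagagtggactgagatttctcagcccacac
Isg15: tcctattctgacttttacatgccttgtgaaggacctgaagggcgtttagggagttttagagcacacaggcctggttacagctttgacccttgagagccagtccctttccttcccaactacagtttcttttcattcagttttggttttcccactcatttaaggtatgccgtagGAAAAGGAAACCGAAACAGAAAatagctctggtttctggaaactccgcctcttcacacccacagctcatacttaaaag
Cxcl10: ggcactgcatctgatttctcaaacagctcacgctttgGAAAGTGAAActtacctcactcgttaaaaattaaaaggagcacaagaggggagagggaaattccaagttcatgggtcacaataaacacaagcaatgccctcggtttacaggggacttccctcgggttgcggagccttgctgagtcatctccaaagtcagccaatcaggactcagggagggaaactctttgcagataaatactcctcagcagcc

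The match began 120 bases before the start in Rsad2, 188 and 154 bases before it in Ifit3b, and 213 bases before it in Cxcl10. In Isg15 3 overlapping matches began 78, 72 and 66 bases before the start. Isg15, the ubiquitin-like modifier, had 9.48, 2.58, 3.03 and 3.74 CPM with anti-gp120 and 34.4, 8.82, 16.4 and 24.3 CPM with anti-IL34 (2.00, standard error 0.503, edgeR adjusted p 0.0902). The arms overlapped through control animal 1 and treated animal 10. They did not on the microglia scale (6.36, 2.19, 2.23 and 4.25 against 38.3, 12.8, 15.8 and 32.5, log2 change 2.54, edgeR adjusted p 0.0921).

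A type I interferon gene was among the 4 that rose (0.0228% of all genes). Ifnb1, which encodes interferon beta, had 24, 7, 6 and 12 counts with anti-gp120 and 33, 48, 51 and 25 counts with anti-IL34, or 0.454, 0.41, 0.357 and 0.327 CPM against 1.65, 1.05, 0.989 and 1.45 CPM (log2 change 1.596, standard error 0.261, edgeR adjusted p 0.0485). All treated libraries were above all controls, at levels where counting error is part of the spread. It passed in 1 of the 8 fits with 1 animal left out, that without anti-gp120 animal 15 (0.00828), and reached 0.225 without anti-gp120 animal 7. The other 10 tested interferon ligands and receptors, Ifnar1 and Ifnar2 among them, did not pass. Of 16 chemokines 1 rose, beside 0.0228% of all genes. This was Cxcl9, a ligand of CXCR3, which went from 0.53, 0.293, 0.119 and 0.736 to 4.59, 2.05, 4.11 and 6.08 CPM (3.17, standard error 0.52, edgeR adjusted p 0.0488). It was also lost in every fit with 1 animal left out except that without anti-gp120 animal 15. Cxcl10, another CXCR3 ligand that lies inside Art3 on the other strand, had 28.3, 15.9, 23.1 and 15.7 CPM and 112, 47.2, 58.1 and 101 CPM (1.83, 0.0554), and Ccl5, a chemokine that attracts T cells, 2.31, 1.05, 1.37 and 1.20 CPM and 8.28, 3.66, 6.38 and 7.07 CPM (2.01, 0.0515). Neither overlapped between arms. The chemokine list as a whole had a median of -0.07 (0.48 on the microglia scale).

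MHC class I genes, which present peptides to CD8 T cells and respond to interferon, had a median of 0.60 over 16 tested members (1.13 on the microglia scale), with 0 past the threshold on the TMM scale. Of the 16, 15 were wholly above the controls on the microglia scale (12.6% of all genes, 17.8% of the enriched ones) and 2 with TMM over all genes (4.78% of all genes). H2-K1 had 222, 229.7, 191 and 172 microglia-scaled CPM with anti-gp120 and 515, 432, 474 and 525 with anti-IL34 (1.21, standard error 0.165, edgeR adjusted p 0.0564), and H2-Q6 45.7, 39.8, 30.4 and 25.5 and 252, 141, 186 and 149 (2.32, 0.0534). The arms were far apart on this scale for both, and H2-K1 overlapped on the TMM scale. Nucleic-acid sensors were among the other microglia-enriched genes with the largest positive differences. Ifi213, Ifi204 and Ifi209, of the IFI200 family, and Zbp1, a sensor of Z-form nucleic acid, had log2 changes between 2.06 and 2.34 with edgeR adjusted p from 0.0799 to 0.105. In Ifi213 control animal 1 was at 54.8 CPM, above treated animal 10 at 45.02 CPM, while the other controls were at most 14.9 CPM. IFI200 genes resemble one another, so reads may be shared between them.

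**Figure D5:**
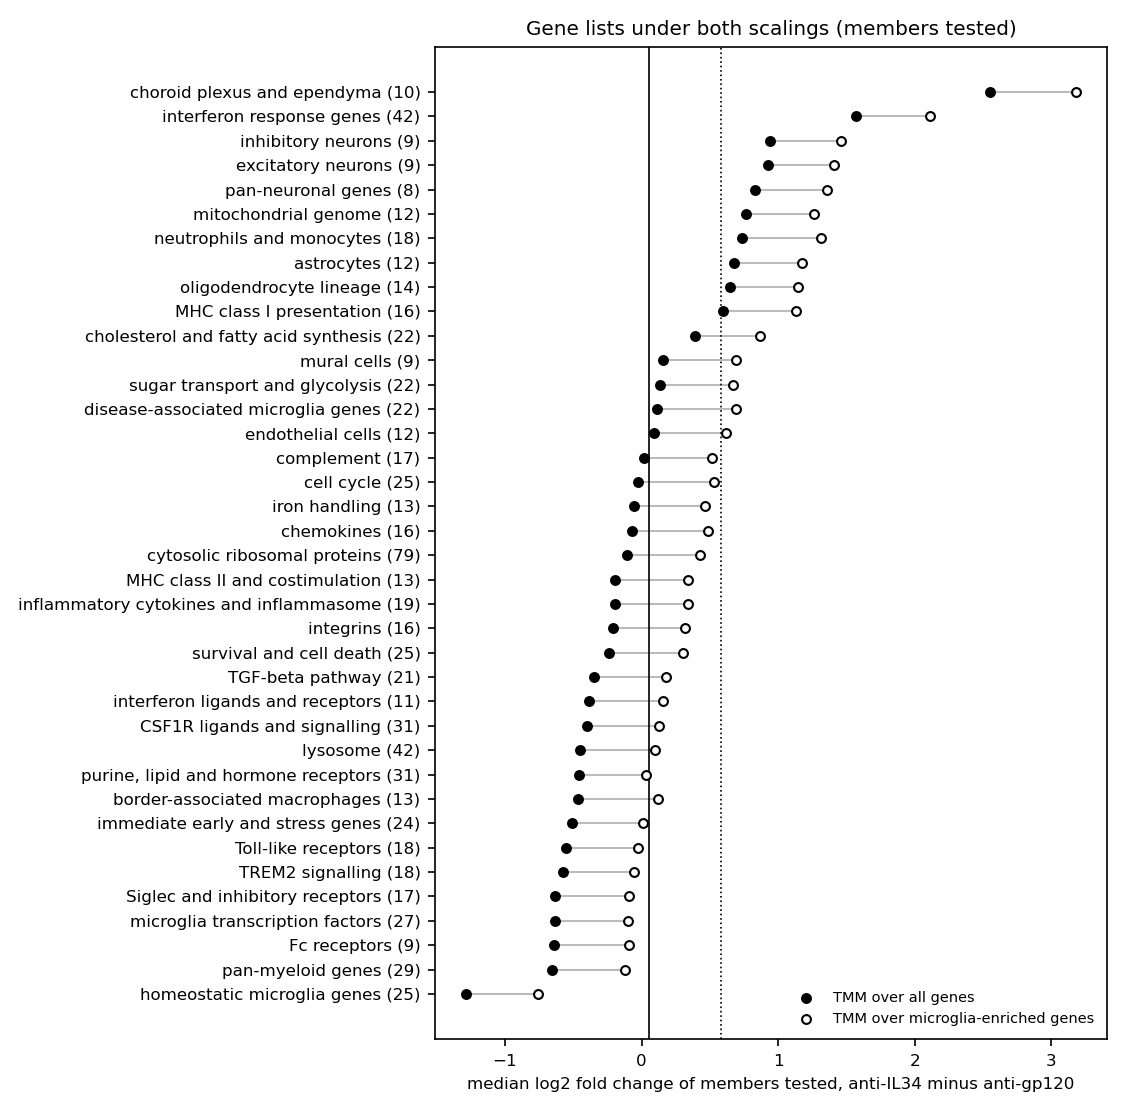
Median log2 change (anti-IL34 minus anti-gp120) of tested members for each gene list, with the number tested in brackets. Filled points use TMM over all genes and open points TMM over microglia-enriched genes, and the solid and dotted lines mark the medians of all genes, 0.06 and 0.58. The homeostatic list is lowest on both (-1.29 and -0.76).

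Several lists had 0 members past the threshold in edgeR. These were complement (17 tested), MHC class II and costimulation (13), inflammatory cytokines and inflammasome (19), survival and cell death (25), cell cycle (25), immediate early and stress genes (24), and cholesterol and fatty acid synthesis (22). Complement had a median of 0.02 (0.52 on the microglia scale). On the microglia scale 8 of the 17 complement genes were wholly above and 0 wholly below the controls (12.6% and 1.98% of all genes). The disease-associated microglia list, genes induced in microglia around plaques and in degeneration, had 0 of 22 called, a median of 0.12 (0.69 on the microglia scale) and 1 member wholly above and 1 wholly below the controls (4.78% and 10.7% of all genes). On the microglia scale 7 were wholly above and 0 below (12.6% and 1.98% of all genes). Its member Axl, a receptor for apoptotic cells that interferon also induces, had 119.6, 135, 115 and 134 CPM and 286, 174, 226 and 239.6 CPM, with no overlap (0.87, standard error 0.168, edgeR adjusted p 0.0566). Apoe, the lipid carrier also made by astrocytes, overlapped at 1418, 1556, 1507 and 2191 CPM and 2547, 2199, 2110.2 and 2809 CPM (0.56, 0.174). Inflammatory cytokine genes had a median of -0.20 (0.34 on the microglia scale) and cell cycle genes of -0.02 (0.53 on the microglia scale), beside 0.06 and 0.58 for all genes. With TMM over all genes 14 of the 19 inflammatory genes lay below 0, as did 7959 of all 17570 genes. On the microglia scale 18 of the 19 lay above 0, as did 15974 of all genes, and 6 were wholly above the controls (12.6% of all genes). All 24 immediate early and stress genes lay below 0 (median -0.51), and the list centred on 0.01 on the microglia scale. Without anti-gp120 animal 15, edgeR called 6 complement genes, 5 MHC class II genes, 6 inflammatory genes and 3 disease-associated genes lower, and 1, 0, 0 and 4 of the respective lists higher. It also called 12 immediate early, 9 survival, 2 cell cycle and 3 cholesterol genes lower and 0, 1, 1 and 11 higher, beside 19.5% of all genes lower and 20.9% higher in that fit.

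Markers of other macrophages and of blood cells were read in the same libraries. Of 13 border-associated macrophage genes 0 passed, with a median of -0.47 (0.12 on the microglia scale). Mrc1, the mannose receptor, had 406, 304, 511 and 385 CPM and 196, 266, 242 and 204 CPM (-0.75, edgeR adjusted p 0.0775), and Lyve1, a hyaluronan receptor, 36.6, 18.2, 40.4 and 36.9 CPM and 13.4, 17.4, 14.3 and 18.1 CPM (-0.99, 0.0944). Both overlapped between arms on the microglia scale. Stab1, a scavenger receptor that microglia also express, was lower in all treated libraries on both scales (-1.27, 0.0565). Siglec1, an interferon-induced member of the list, read 33.6, 15.9, 21.6 and 22.8 against 88.5, 63.4, 69.0 and 110.4 microglia-scaled CPM, with arms apart (1.75, edgeR adjusted p 0.0646). With TMM over all genes its arms overlapped (1.18, edgeR adjusted p 0.119), and it passed on neither scale. Neutrophil and monocyte genes had a median of 0.74 (1.31 on the microglia scale) with 0 of 18 called. S100a8, a neutrophil calcium-binding protein, ranged from 7.23 to 66.3 CPM in controls and from 33.2 to 117 CPM in treated libraries, which overlap.

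Non-myeloid brain markers were above 0 in nearly every member without passing. The medians were 0.68 over 12 astrocyte genes, 0.65 over 14 oligodendrocyte-lineage genes, 0.93 over 9 excitatory-neuron genes and 0.09 over 12 endothelial genes. Gfap, the astrocyte filament protein, had 147, 132, 147 and 437 CPM with anti-gp120 and 266, 293, 209 and 448 CPM with anti-IL34, and Snap25, a synaptic protein, 35.9, 56.3, 48.8 and 130.1 CPM and 128, 151, 91.8 and 125 CPM. For both, control animal 15 was inside the treated range and the other controls were below it. Without animal 15 edgeR called 11 astrocyte, 12 oligodendrocyte-lineage, 8 excitatory-neuron, 5 inhibitory-neuron, 8 pan-neuronal and 11 mitochondrial-genome genes higher (20.9% of all genes). It called 4 choroid plexus genes higher, and 18 of 79 ribosomal protein genes and 2 of 4 lymphocyte genes lower, beside 19.5% of all genes lower. The medians were 0.94 over 9 inhibitory-neuron, 0.83 over 8 pan-neuronal, 0.16 over 9 mural-cell, -0.28 over 4 lymphocyte, 0.11 over 4 erythroid and -0.10 over 79 ribosomal protein genes, with 0 called in each list. Transcripts of the mitochondrial genome, which every cell carries and whose share can move with RNA quality, summed to 41665 to 129490 CPM with anti-gp120 and 79984 to 122710 CPM with anti-IL34 (median 0.76 over 12 genes). Control animal 15 was the highest of the 8 and the other controls were below the treated libraries. Choroid plexus transcripts (median 2.55 over 10 genes) differed within the treated arm. Ttr, transthyretin of the choroid plexus epithelium, had 0.299, 1856, 499.8 and 18.3 CPM with anti-IL34 and 1.25, 0.0586, 2.74 and 0.136 CPM with anti-gp120, so that animals 10 and 11 were high and animal 2 was not (edgeR adjusted p 0.104). The part of these transcripts in the other results was not tested. Slc4a10, a neuronal and choroid plexus bicarbonate transporter, was the remaining one of the 4 genes that rose, from 19.6, 15.5, 11.8 and 10.9 to 59.3, 64.6, 37.7 and 32.1 CPM (1.63, standard error 0.226, edgeR adjusted p 0.0374). It had an edgeR adjusted p of 0.217 without anti-gp120 animal 7 and 0.00606 without anti-gp120 animal 15.

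The effect in isolates was set against that in whole forebrain of the same animals by a test of the difference. Of 18399 genes 17 differed (0.0924%), 16 (0.087%) with a lower and 1 (0.00544%) with a higher effect in the isolates. A replicate block for the animal, which pairs the hemispheres, left 0 by edgeR. Unblocked, 3890 genes reached 0.05 before adjustment. The count was also 0 when control animal 1, 7 or 8 or treated animal 10 was left out, and 5565 without control animal 15. Gpr165 had a log2 change of -1.84 in isolates and -0.08 in forebrain (difference -1.77, edgeR adjusted p 0.0277). Arsb (difference -1.18, 0.0115), Adra2a (-1.20, 0.02), Cd164 (-1.02, 0.0277), Cep68 (-0.74, 0.0277) and Gm11523 (-3.22, 0.0405) were also lower in the isolates, and Slc4a10 was higher (1.51, 0.0405). P2ry12, at -1.93 and -2.18, did not differ past the threshold (difference 0.24, edgeR adjusted p 0.496), nor did Rsad2, at 2.21 and 2.31 (difference -0.11, 0.929).

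Gene deletion, in other animals with their own controls, gave 0 of 18732 genes (0%) that differed from the antibody effect in isolates (edgeR, 740 at an unadjusted p under 0.05, 35 by DESeq2, 5 without anti-gp120 animal 1). With TMM over all genes the median of this difference, deletion minus antibody, was -0.52 over microglia-enriched genes and -0.009 over all genes. Equal values below are therefore not equal relative to other microglia genes. Slc2a5 had a log2 change of -2.07 in KO minus Het (edgeR adjusted p 0.0136) and -2.78 with the antibody, Gpr165 -1.74 and -1.84, and P2ry12 -1.92 and -1.93. In the deletion the interferon genes were at -0.57 for Rsad2 and -0.24 for Ifit3b (edgeR adjusted p 0.325 and 0.697) beside 2.21 and 2.74 with the antibody. The test of that difference gave an edgeR adjusted p of 0.654 for both genes. C1qa was at -1.37 in the deletion (edgeR adjusted p 0.0238) and -0.62 with the antibody, with an edgeR adjusted p of 0.9999 for the difference.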

How the data were processed

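RNA of the 8 isolates was sequenced from a low-input full-length cDNA library (Takara SMART-Seq v4), per the labels' protocols. The deposited values are raw counts per gene, which the authors made with STAR 2.7.5c and featureCounts 1.6.3 on GRCm38, per the submitters' processing notes. Whether strand was used in counting is not given in the sources used here. In the count table the stated gene length equals the whole gene span for 51183 of 51498 matched genes. Reads over introns and overlapping genes may therefore enter a gene's count. The table's 6 columns that match no sample were not used.

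Counts were tested with edgeR 4.0.16 (R 4.3.3) by the quasi-likelihood test with TMM scaling, filterByExpr on the arm and a sex term, and Benjamini-Hochberg adjustment over all genes tested at 0.05. A log2 change is anti-IL34 minus anti-gp120. The microglia scale used TMM over microglia-enriched genes. Alternatives were DESeq2 1.42.0, limma 3.58.1 with quality weights, other scalings, filters and terms, and each animal left out. The scripts were tested on simulated data. Named genes were the called genes with the smallest p, the members of each list with the smallest p, defining markers, abundant and extreme microglia-enriched genes, and the ligands and receptor of the pathway. The members and lists were chosen with earlier results of these data known. The smallest chi-square per degree of freedom between 2 replicates was 14.04 over 12 pairs, so none was a repeat of another. Isolate and forebrain bear the same animal numbers and come from the same brains, per the labels. Their deviations from the arm means had a median correlation of 0.183 over 8 animals (0.0619 to 0.311, above 0.1 in 7), against -0.0508 between different animals of 1 arm. Promoter sequences are from RefSeq (GRCm38.p6). Values of a few list members are not reported here, and they are left out of the plots of single genes.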

Additional observations from a re-analysis of the deposited data

Results flagged for a closer look

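Single libraries stood apart within their arm of 4 in 13 of the 158 gene and 80 list groups examined, by the gap to the nearest of the others relative to the arm's range. Chance alone flags about 1 in 20 such groups. Control animal 1 was high for interferon-induced genes, with 29.8 CPM of Rsad2 (10.3 to 13.1 in the other controls), 9.479 CPM of Isg15, 54.83 CPM of Ifi213, 18.49 CPM of Zbp1 and 29.36 CPM of Ifi209. The summed CPM of interferon response genes in it was 2329. Control animal 15 was low for Slc2a5, at 101.5 CPM against 124.4 to 128.2, and high for Gfap, at 437.5 CPM against 131.9 to 147.1. Treated animal 11, the female of its arm, was high for Slc2a5 at 26.74 CPM, Gm11523 at 1.144 CPM and summed endothelial markers at 2632 CPM. It was low for Mbp, the myelin basic protein gene, at 3513 CPM and for summed excitatory-neuron markers at 2875 CPM.

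For 7 named genes the antibody effect differed between isolate and forebrain in the edgeR test, before the animals were paired. The log2 differences were -1.765 for Gpr165, -3.223 for Gm11523, -1.178 for Arsb, -1.019 for Cd164, -0.7403 for Cep68, -1.203 for Adra2a and 1.507 for Slc4a10. With the animal as replicate block 0 genes passed.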

How the results depend on the processing

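The antibody effect in isolates gave 110 calls, 819 with no count filter, 983 with no sex term, 988 with all 15 isolates, 2015 by DESeq2 and 6970 by limma with quality weights, and 0 to 6905 with 1 animal left out. RLE scaling called 107 (106 of the 110 among them) and a 10 CPM minimum 101 (92 of the 110). TMM over the pan-myeloid list called 89, with 9 of the 110 among them, 83 higher and 6 lower. On the microglia scale 2 calls became 89 with the pan-myeloid list, 228 with no sex term, 288 in the fit to enriched genes only (added after seeing the data), 1319 by DESeq2, 11599 by limma, and 0 to 9414 with 1 animal left out. The isolate and forebrain effects differed for 17 genes, for 0 with the animal as replicate block, 48 with RLE scaling, 1092 by DESeq2, 1352 with no filter and 0 to 5565 with 1 animal left out. Deletion minus antibody gave 0, 1 with no filter, 35 by DESeq2 and 0 to 5 with 1 animal left out. The sign turned on the pan-myeloid scale for Csf1 (0.0062), Ctss (0.19), C1qa (0.0433) and C1qb (0.0718). On the microglia scale it turned in the range with 1 animal left out for Ctss (-0.0537 to 0.116), Mrc1 (-0.38 to 0.14) and Lyve1 (-0.81 to 0.10). Over all genes named and alternatives, 805 values with TMM over all genes kept sign and side of the threshold, 210 gained it, 236 lost it and 4 reversed. On the microglia scale these were 949, 268, 14 and 6. The cause was not tested. Ifnb1 had 6 to 51 counts per library, where counting error is large.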
